A study of Nicotiana benthamiana with 9 samples.

Results

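The 129 sequences described here led the leaf RNA of Nicotiana benthamiana, an Australian plant of the tobacco genus that laboratories use as a host for introduced genes. They are the rows of the deposited count table whose share of a library's summed count, averaged over all 9 libraries, was at least 0.1%. They make up 129 of 56094 rows, of which 16276 had a count in any library. The shares in the heat-treated, wounded and mock libraries chose them together, so their abundance is given as a description with no test.

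All plants were 5 weeks old, grown in soil, and sampled as leaves. The Heat group was exposed to 37 °C for 1 h. The wound group had its leaves cut with scissors and was then kept at 23 °C for 1 h, and the Mock group was left unwounded at 23 °C for 1 h. Each group had 3 libraries, which the series calls biological replicates, and mock is its stated control.

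Each row is a whole assembly scaffold or contig whose name begins with Niben101, not a gene, and a long row can pool the transcripts of many genes. As background, leaf cells devote much of their messenger RNA to a small number of photosynthesis genes, among them those of the small subunit of Rubisco, the enzyme that fixes carbon dioxide, and of the chlorophyll-binding light-harvesting proteins. Ribosomal RNA makes up most of the total RNA of a plant cell unless it is removed, and chloroplast transcripts are also plentiful in leaves. A plant moved to high temperature makes large amounts of heat shock protein messenger RNA within the first hour. The rows are not paired with genes here, so none of these roles is assigned to a sequence, and the leaf label could not be checked against marker genes.

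Libraries held 13846165 to 17480792 counts. All 129 abundant sequences passed the filter on low counts, which left 9645 sequences for testing. Replicates of a group differed by more than sampling noise, with a chi-square per degree of freedom of 12.26 (Mock-1 and Mock-3) to 46.49 (Mock-1 and Mock-2) over pairs of libraries.

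The abundant sequences were long scaffolds in most cases. The shortest had 740 nt, the longest 2581428 nt and the median 469582 nt, against a median of 193293 nt over the tested sequences. They comprised 122 scaffolds and 7 contigs, and their combined length was 2.44% of the assembly. Contigs were 5.43% of them and 14.2% of the tested sequences. Of the 418 tested sequences of 1000000 nt or more, 5.26% were in the set, against 0.397% of the 2014 tested sequences under 20000 nt. Within the set, length and mean share had a Spearman correlation of -0.0594 (n = 129), against 0.697 over the 9645 tested sequences. Mean share also chose the set, which limits its range there, so these correlations are not comparable. These points come from the same 9 libraries and are given as a description.

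RPKM, the authors' count divided by sequence length and by library total, ran from 0.427 to 15046 over the set as means of 9 libraries. The median was 5.21 RPKM, against 0.210 RPKM over the tested sequences. Only 22 of the 129 were also among the 129 sequences with the highest mean RPKM. In the set, 8 sequences were under 20000 nt, and they had mean RPKM values of 99.9 to 15046. The 22 sequences of 1000000 nt or more had 0.427 to 10.2 RPKM.

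**Figure D1:**
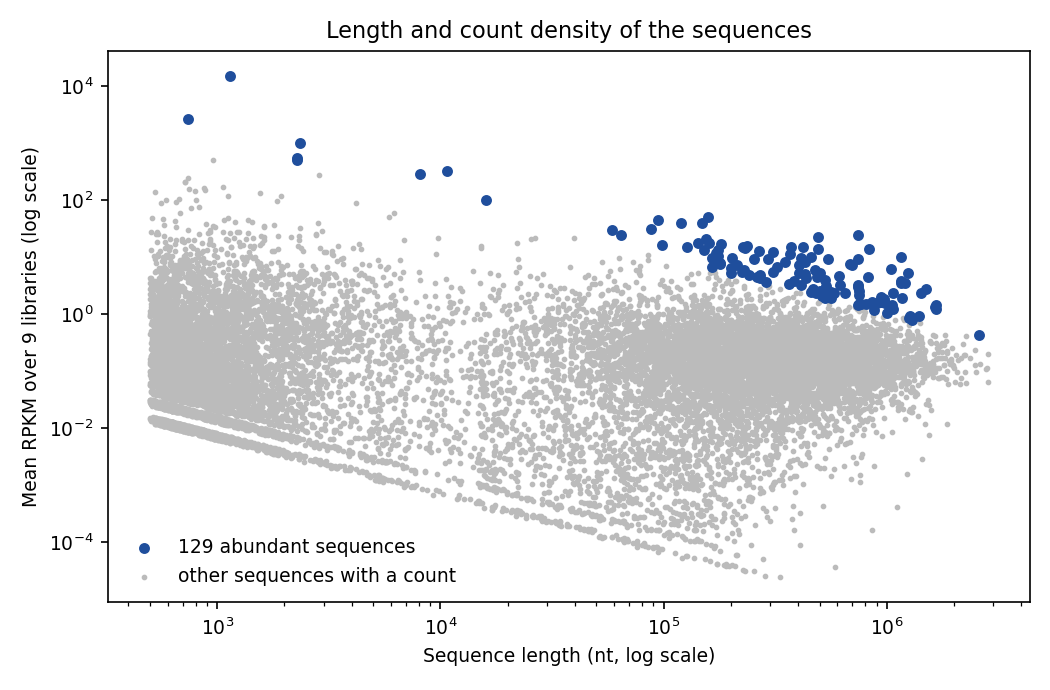
Mean RPKM over 9 libraries against sequence length, both on log scales, for the 129 abundant sequences (blue) and all other sequences with a count (grey). The abundant sequences follow the upper edge because their count share chose them. Among them, 8 are under 20000 nt, and the highest is a contig of 1137 nt at 15046 RPKM.

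The contig Niben101Ctg10718 (positions 1 to 1137) held the second highest mean count share and the highest density of the table. Its share was 1.30%, 1.55% and 1.53% in the heat libraries, 1.96%, 1.83% and 2.12% in the wounded libraries, and 1.95%, 1.43% and 1.73% in the mock libraries. The heat libraries lay below all wounded libraries and overlapped with the mock libraries. TPM, in which the authors rescaled RPKM to a sum of 1000000 per library, was dominated by this contig. It took 38.0% to 42.2% of the TPM in heat libraries, 45.8% to 49.5% in wounded libraries and 40.1% to 46.8% in mock libraries. A TPM value of any other sequence therefore moves with this contig, and the count share is used below. The next highest densities of the table were those of Niben101Ctg06879 (positions 1 to 740) at 2682 RPKM and Niben101Ctg14049 (positions 1 to 2350) at 986 RPKM. All 7 contigs of the set had over 100 RPKM.

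By count share, 5 sequences held at least 1% of a library on average, 16 held at least 0.5% and 64 at least 0.2%. The scaffold Niben101Scf01991 (positions 1 to 744375) came first. It held 1.29%, 1.78% and 1.63% in the heat libraries, 1.81%, 1.92% and 1.99% in the wounded libraries, and 2.17%, 2.03% and 1.84% in the mock libraries. It led 2 of 3 heat, 1 of 3 wounded and 3 of 3 mock libraries, and Niben101Ctg10718 led the other 3. These leading sequences had overlapping shares within each group, so their order was not established.

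The scaffold Niben101Scf01785 (positions 1 to 1163398) held 0.732%, 0.800% and 0.727% in the heat libraries, 1.38%, 1.39% and 1.43% in the wounded libraries, and 1.56%, 1.24% and 1.42% in the mock libraries. Its heat libraries lay far below all others, while the wounded libraries fell within the range of the mock libraries. The scaffold Niben101Scf03455 (positions 1 to 829807) held 1.05% ± 0.0142 in heat, 1.25% ± 0.0486 in wounded and 1.18% ± 0.161 in mock libraries (SD, n = 3 each). The scaffold Niben101Scf04196 (positions 1 to 493895) held 0.968% ± 0.156 in heat, 1.34% ± 0.211 in wounded and 0.957% ± 0.220 in mock libraries. The heat and mock libraries overlapped for both.

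The next 7 by mean share were Niben101Scf12382, Niben101Scf01020, Niben101Scf02852, Niben101Scf02513, Niben101Scf02262, Niben101Scf03015 and Niben101Scf11384. Their means over 9 libraries ran from 0.793% down to 0.585%. Together the leading 12 held 9.56% ± 0.806 of the count in heat libraries, 12.8% ± 0.516 in wounded libraries and 12.5% ± 1.18 in mock libraries (SD, n = 3 each).

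**Figure D2:**
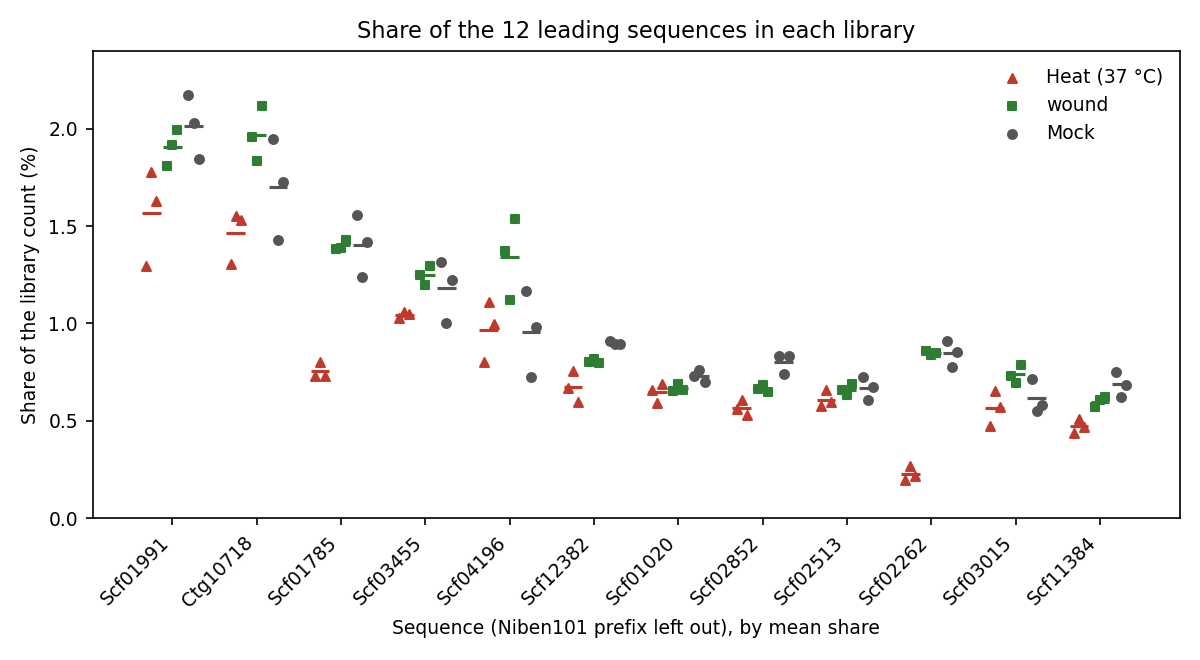
Share of the library count for the 12 sequences with the highest mean share, in percent, with 1 point per library and a bar at the group mean. The widest gap in percentage points between heat libraries and all others is that of Niben101Scf02262, at 0.195% to 0.267% in heat and 0.775% to 0.908% in mock libraries.

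Heat libraries gave a smaller part of their counts to the abundant sequences than mock libraries did. A share is relative to the rest of its library, and in whole leaves fewer cells of a type and less RNA per cell cannot be told apart. The 129 sequences together held 31.3%, 35.3% and 32.2% of the count in heat libraries, 38.7%, 37.7% and 39.8% in wounded libraries, and 42.0%, 36.3% and 39.9% in mock libraries. The highest heat library, Heat-2, lay close below the lowest mock library, Mock-2, and on library totals the heat and mock groups did not overlap. The group means were 32.9% ± 2.11 for heat, 38.7% ± 1.04 for wounding and 39.4% ± 2.89 for mock (SD, n = 3 each). Heat minus mock was -6.47 percentage points, and wounding minus mock was -0.659 points, which is smaller than the spread between replicates. With library totals multiplied by their TMM factors, a scaling computed on the bulk of the sequences, heat minus mock was -3.246 points, a choice made after seeing the data. The factors were 0.9285 for Heat-2 and 1.092 for Mock-2. After this scaling Heat-2 lay above Mock-2, so the heat and mock groups overlapped. Wounding minus mock changed direction with the same scaling, to 0.8282 points, and without Mock replicate 1, to 0.6441 points. Leaving out 1 library gave between -8.02 and -5.16 points for heat and between -2.21 and 0.6441 points for wounding.

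**Figure D3:**
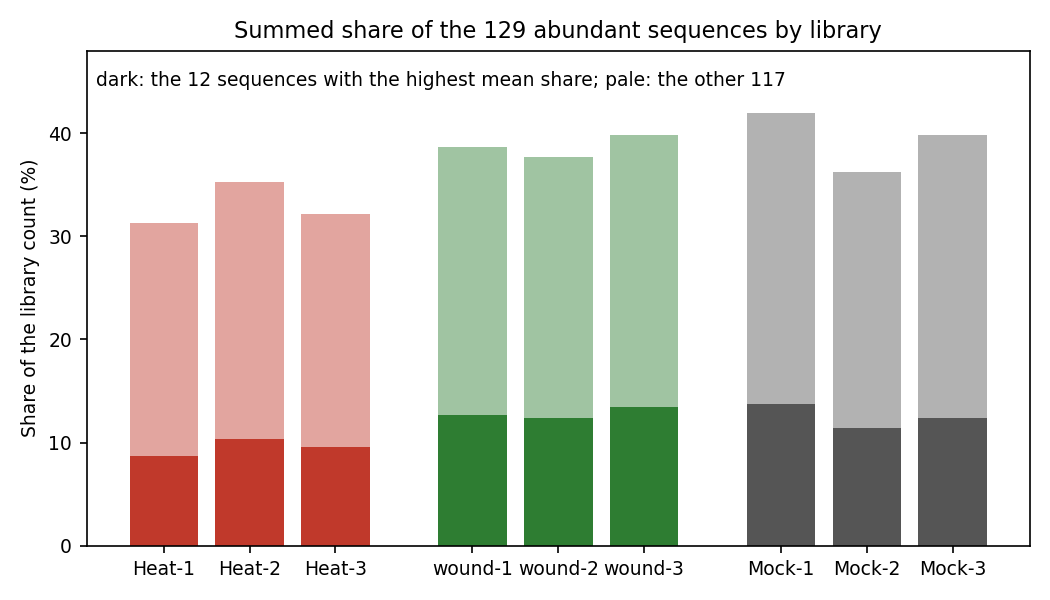
Share of the library count held by the 129 abundant sequences in each library, in percent, stacked as the 12 leading sequences (dark) and the other 117 (pale). Heat libraries sum to 31.3% to 35.3%, wounded libraries to 37.7% to 39.8% and mock libraries to 36.3% to 42.0%.

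The first test asked which abundant sequences responded to 37 °C. Of the 129, 14 rose and 38 fell in heat libraries relative to mock (edgeR quasi-likelihood test, Benjamini-Hochberg adjusted p under 0.05 over 9645 sequences). That is 10.9% higher and 29.5% lower, where 27.4% of all tested sequences were higher and 22.8% were lower. The median log2 fold change was -0.10 over the set and 0.01 over all tested sequences. Most falls were small. Changes of at least 2-fold were called for 7 that rose (5.43%, against 12.8% of all tested) and 7 that fell (5.43%, against 8.58%). The remaining 31 falls had log2 fold changes of -0.94 to -0.29. For 77 sequences no change was called. The number that fell depended on the scaling. Upper-quartile factors, which moved the median log2 fold change of all sequences to -0.17, gave 12 higher and 60 lower, and library totals alone, with a median of -0.12, gave 12 and 64. Of all tested sequences, 21.1% were then higher and 33.1% lower with upper-quartile factors, and 22% higher and 29.2% lower with library totals.

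The rule let a sequence enter through 1 group alone. In all, 7 of the 129 had a mean share under 0.1% in both mock and wounded libraries, and they entered through their heat share. They account for 7 of the 14 rises, which is therefore no support for a direction. Niben101Scf09590 (0.104% in mock, 0.0887% in wounded libraries) and Niben101Scf00369 (0.101% and 0.0973%) also rose but averaged under 0.1% over mock and wounded libraries together. Their rises are no support for a direction either. Both were named after their values were seen. In the same way, 20 had a heat mean under 0.1%, and 13 of those were called lower. Falls were also called for some sequences that averaged under 0.1% over heat and wounded libraries together. They were Niben101Scf02720 (0.0772% in heat, 0.107% in wounded libraries), Niben101Scf12623 (0.0797% and 0.117%), Niben101Scf04561 (0.0854% and 0.109%) and Niben101Scf03839 (0.0818% and 0.113%). They reached the set only with their mock share, so their falls are no support for a direction. Their falls were picked out after the values were seen. When sequences were chosen on the wounded libraries alone, which enter neither side of the heat comparison, 130 reached 0.1%, and 120 of them were in the set. Of these 130, 5 rose and 44 fell after heat (3.85% and 33.8%, against 27.4% and 22.8% of all tested). Wounded libraries were close to mock ones, and this choice leaves out sequences that reached 0.1% only after heat. The split describes sequences abundant without heat and is partly set by the choice. Only 89 sequences reached 0.1% in every library, and 3 of those rose and 21 fell. Falls among these 89 were close to the 22.8% of all tested sequences. With a threshold of 0.05% in place of 0.1%, the set grew to 268 sequences, of which 66 rose and 71 fell.

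Among the 12 leaders, 4 fell after heat and none was called higher (edgeR adjusted p; 5 were lower and 0 higher at an unadjusted p under 0.05, and 5 lower and 0 higher by DESeq2). Of all tested sequences, 22.8% were lower and 27.4% higher by edgeR's adjusted p. The shares were 26.3% and 30% at an unadjusted p under 0.05, and 24.4% and 27.3% by DESeq2. Niben101Scf02262 (positions 1 to 423175) had the largest fall of these. It held 0.195%, 0.267% and 0.217% in heat libraries, 0.860%, 0.837% and 0.849% in wounded libraries, and 0.908%, 0.775% and 0.854% in mock libraries. Heat libraries lay below every other library, and wounded and mock libraries overlapped. The log2 fold change of heat over mock was -1.77 ± 0.148 (SE, adjusted p = 2.58e-06 in edgeR's test). Niben101Scf01785 followed with -0.77 ± 0.130 (SE, adjusted p = 4.53e-04 in edgeR's test).

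The other leaders that fell changed less. Niben101Scf02852 had a log2 fold change of -0.37 ± 0.112 (SE, adjusted p = 0.0165 in edgeR's test) and Niben101Scf11384 one of -0.41 ± 0.126 (adjusted p = 0.0167). Niben101Scf02852 lost its call without Heat replicate 1 (adjusted p = 0.0642), Heat replicate 3 (0.0805), Mock replicate 1 (0.0557) or Mock replicate 3 (0.0580). Niben101Scf11384 lost it without Heat replicate 1 (0.0792), Heat replicate 3 (0.0570) or Mock replicate 1 (0.0654). The 2 most abundant sequences were not called, with log2 fold changes of -0.23 ± 0.149 for Niben101Scf01991 (adjusted p = 0.225) and -0.09 ± 0.157 for Niben101Ctg10718 (adjusted p = 0.660). Upper-quartile factors (-0.41, adjusted p = 0.0464) and library totals alone (-0.36, adjusted p = 0.0175) called Niben101Scf01991 lower. Niben101Scf12382 was close to the threshold at -0.28 ± 0.114 (adjusted p = 0.0578), and 7 of 18 alternative fits called it lower.

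**Figure D4:**
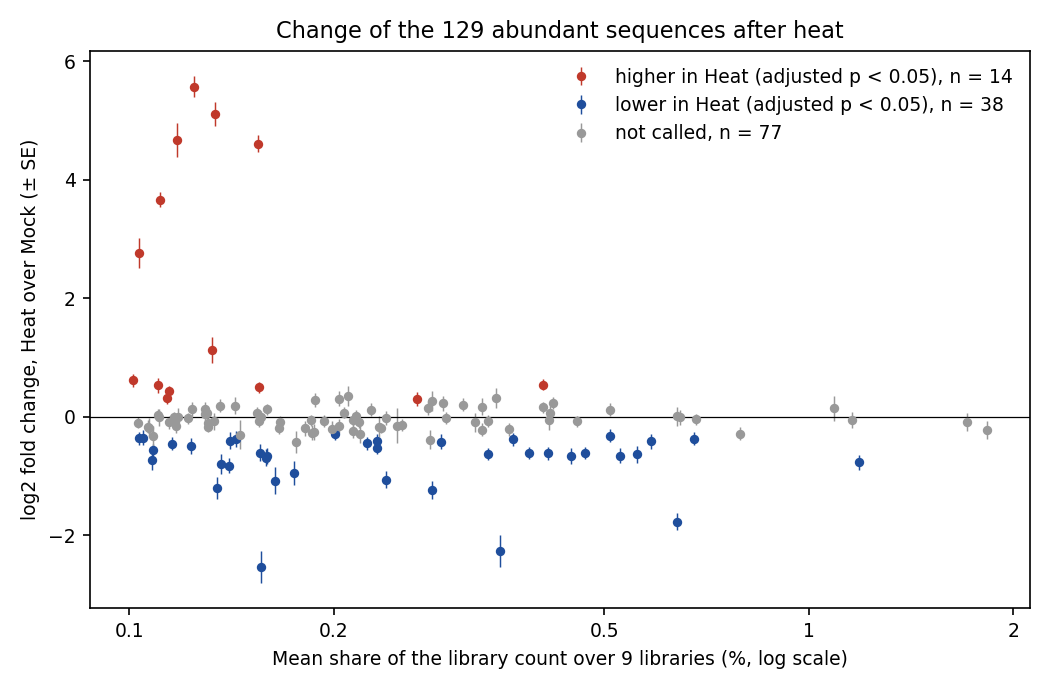
Log2 fold change of heat over mock (± SE) against the mean share over 9 libraries on a log scale, for the 129 abundant sequences. The 14 called higher (red) sit mostly at low mean shares, 12 of them under 0.2%, and the 38 called lower (blue) are spread over the range up to 1.19%.

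By fitted change, the largest falls of the set were those of Niben101Scf13600 and Niben101Ctg16374. Niben101Scf13600 (positions 1 to 212268) held 0.0244%, 0.0491% and 0.0264% in heat libraries, 0.244%, 0.194% and 0.232% in wounded libraries, and 0.223%, 0.172% and 0.240% in mock libraries. Its log2 fold change was -2.53 ± 0.267 (SE, adjusted p = 1.50e-05 in edgeR's test). The contig Niben101Ctg16374 (positions 1 to 10737) held 0.0740%, 0.136% and 0.0598% in heat libraries, 0.503%, 0.479% and 0.483% in wounded libraries, and 0.528%, 0.419% and 0.482% in mock libraries. Its log2 fold change was -2.27 ± 0.266 (SE, adjusted p = 3.40e-05 in edgeR's test). In both, Heat-2 was the highest of the heat libraries and still lay below every mock and wounded library.

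The 4 remaining falls of at least 2-fold, named after their values were seen, were those of Niben101Scf11490, Niben101Scf00406, Niben101Scf11724 and Niben101Scf10305. Their log2 fold changes were -1.24, -1.06, -1.08 and -1.21. The 38 sequences that fell held 7.76% ± 0.663 of the count in heat libraries, 12.8% ± 0.0692 in wounded libraries and 13.8% ± 1.08 in mock libraries (SD, n = 3 each), a sum over sequences chosen by their call. In percentage points of the count, Niben101Scf01785 gave up most, at -0.652, followed by Niben101Scf02262 at -0.619 and Niben101Scf01991 at -0.448, of which the last was not called after scaling.

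The 7 sequences that entered the set through their heat share include the 6 largest gains. The rule itself brings this about, so their values are given with no test. Niben101Scf10384 (positions 1 to 365057) held 0.326%, 0.400% and 0.340% in heat libraries, 0.0101%, 0.0115% and 0.00962% in wounded libraries, and 0.00929%, 0.00688% and 0.00824% in mock libraries. Its log2 fold change was 5.58 ± 0.178 (SE). Niben101Scf10796 (positions 1 to 178960) held 0.385%, 0.362% and 0.380% in heat libraries, 0.0120%, 0.0164% and 0.0131% in wounded libraries, and 0.0148%, 0.00959% and 0.0110% in mock libraries. Its log2 fold change was 5.11 ± 0.204 (SE).

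Another 3 sequences of this kind were named after their values were seen. Niben101Scf04040 (positions 1 to 1060080) held 0.427% ± 0.0537 in heat, 0.0169% ± 9.86e-04 in wounded and 0.0193% ± 0.00264 in mock libraries (SD, n = 3 each), and ranked 15 by heat mean and 887 by mock mean. Niben101Scf04537 (positions 1 to 269025) held 0.327% ± 0.0883 in heat, 0.0116% ± 0.00120 in wounded and 0.0139% ± 0.00434 in mock libraries. Niben101Scf04847 (positions 1 to 479878) held 0.283% ± 0.0235 in heat, 0.0259% ± 0.00390 in wounded and 0.0244% ± 7.94e-04 in mock libraries. The 7 sequences that entered through heat together held 2.10% ± 0.156 of the count in heat libraries, 0.236% ± 0.0299 in wounded libraries and 0.204% ± 0.0193 in mock libraries. Without them the other 122 held 30.8% ± 1.95 in heat, 38.5% ± 1.07 in wounded and 39.2% ± 2.90 in mock libraries.

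The set held 122 of the 133 sequences with a mean of at least 0.1% in mock libraries. Of these 122, 7 rose after heat, where 27.4% of all tested sequences were higher. Choosing on a high mock share works against rises over mock, so this count is no support for a direction. The 7 had log2 fold changes of 0.30 to 1.13. The largest was Niben101Scf09590 (positions 1 to 411330), which held 0.241%, 0.168% and 0.206% in heat libraries, 0.0939%, 0.0923% and 0.0800% in wounded libraries, and 0.0706%, 0.152% and 0.0882% in mock libraries. Mock-2 stood above the other mock libraries but below every heat library. Niben101Scf09590 averaged under 0.1% over mock and wounded libraries together, so its rise is no support for a direction. The most abundant sequence that rose was Niben101Scf02289 (positions 1 to 1156571), with 0.501% ± 0.0399 in heat, 0.339% ± 0.0101 in wounded and 0.377% ± 0.00529 in mock libraries (SD, n = 3 each). Its log2 fold change was 0.54 ± 0.0960 (SE, adjusted p = 6.76e-04 in edgeR's test). Both of these were named after their values were seen.

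**Figure D5:**
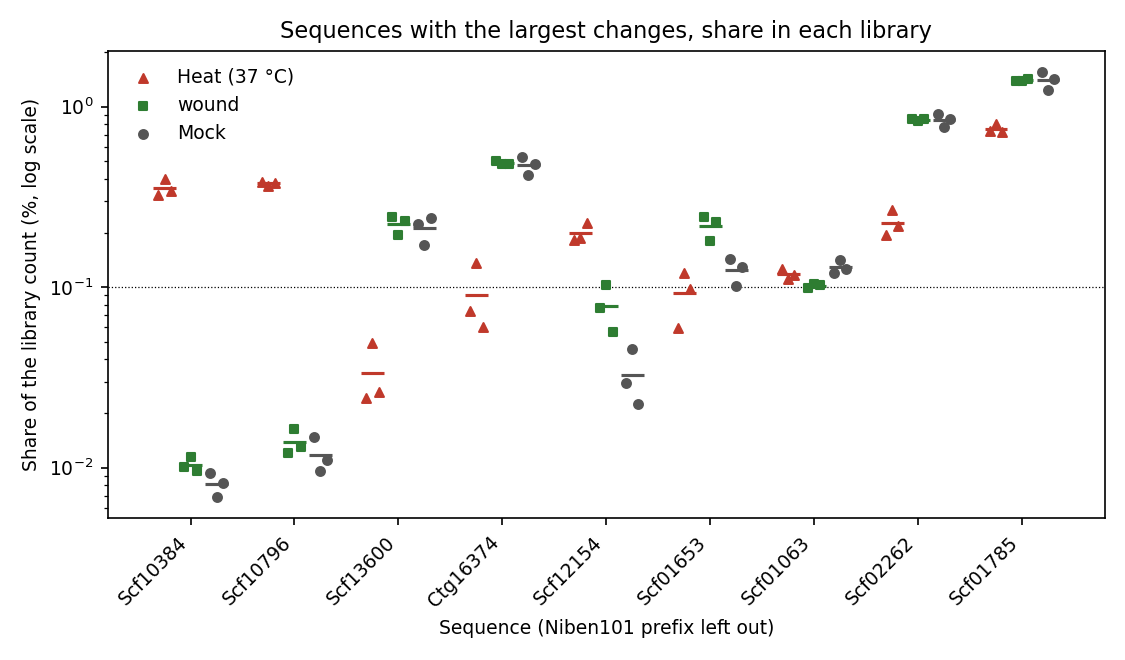
Share of the library count on a log scale, with 1 point per library and a bar at the group mean, for the sequences of the set with the largest rises and falls after heat or wounding and for the leaders Niben101Scf02262 and Niben101Scf01785. The dotted line marks 0.1%. Niben101Scf10384 and Niben101Scf10796 cross it in heat libraries only, and Niben101Scf13600 lies below it in heat libraries only.

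The 8 abundant sequences under 20000 nt are short, but how many transcripts or near-identical copies share such a row was not tested. Of them, 5 fell after heat and the other 3, Niben101Ctg10718, Niben101Ctg06879 and Niben101Ctg13946, were not called. Among all 2014 tested sequences under 20000 nt, 18.6% were lower and 19.5% higher. Niben101Ctg16210 (positions 1 to 8119) held 0.173% ± 0.00270 in heat, 0.249% ± 0.0152 in wounded and 0.273% ± 0.0193 in mock libraries (SD, n = 3 each), a log2 fold change of -0.53 ± 0.103 over mock (SE, adjusted p = 0.00121 in edgeR's test). Niben101Scf34696 (positions 1 to 15948) held 0.0981% ± 0.0124 in heat, 0.209% ± 0.0152 in wounded and 0.171% ± 0.0193 in mock libraries, a log2 fold change of -0.67 ± 0.140 (adjusted p = 0.00205). Niben101Ctg14049 and Niben101Ctg13927 fell less, with log2 fold changes of -0.41 and -0.50. Without Niben101Ctg10718, the short sequences held 0.906% ± 0.0804 in heat libraries, 1.66% ± 0.0370 in wounded libraries and 1.66% ± 0.146 in mock libraries. These sequences were picked by length after the table was seen.

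The second test asked which abundant sequences responded to wounding. Of the 129, 5 rose and 1 fell in wounded libraries relative to mock (3.88% and 0.775%, against 9.86% and 5.02% of all tested sequences). Changes of at least 2-fold numbered 1 higher and 0 lower, against 3.61% and 0.954% of all tested. None of the 12 leaders was called (edgeR adjusted p; 1 was higher and 0 lower at an unadjusted p under 0.05, and 0 in either direction by DESeq2). Niben101Scf12154 (positions 1 to 288466) had the largest rise. It held 0.182%, 0.187% and 0.228% in heat libraries, 0.0767%, 0.103% and 0.0565% in wounded libraries, and 0.0296%, 0.0452% and 0.0226% in mock libraries. All wounded libraries lay above all mock libraries, and all heat libraries lay above both. The log2 fold change of wounding over mock was 1.34 ± 0.241 (SE, adjusted p = 0.00349 in edgeR's test), and it stayed called in all 18 alternative fits, with adjusted p up to 0.0178. This sequence is one of the 7 that entered through their heat share, so its heat values are a description.

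Niben101Scf01653 (positions 1 to 382800) held 0.0597%, 0.120% and 0.0974% in heat libraries, 0.245%, 0.180% and 0.230% in wounded libraries, and 0.143%, 0.102% and 0.130% in mock libraries. Its wounded libraries stood above all others, with a log2 fold change of 0.86 ± 0.247 over mock (SE, adjusted p = 0.0374 in edgeR's test). The contig Niben101Ctg13946 (positions 1 to 2284) held 0.0889% ± 0.00854 in heat, 0.151% ± 0.0160 in wounded and 0.104% ± 0.0115 in mock libraries (SD, n = 3 each). Its log2 fold change was 0.59 ± 0.115 (SE). The remaining rises, of Niben101Scf08488 and Niben101Scf02583, had log2 fold changes of 0.44 and 0.65. Niben101Ctg13946 and Niben101Scf02583 (heat 0.0730%, wounded 0.152%, mock 0.101%) averaged under 0.1% over heat and mock libraries together. They entered through their wounded share, so their rises are no support for a direction. Of 145 sequences chosen on the heat libraries alone, 7 rose and 3 fell after wounding (4.83% and 2.07%, against 9.86% and 5.02% of all tested). Niben101Scf01063 (positions 1 to 1272959) was the sequence that fell, with 0.118% ± 0.00759 in heat, 0.102% ± 0.00309 in wounded and 0.129% ± 0.0109 in mock libraries and a log2 fold change of -0.28 ± 0.0829 (adjusted p = 0.0405). Niben101Ctg13946, Niben101Scf08488 and Niben101Scf02583 were named after their values were seen.

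The number of calls after wounding changed when single libraries were left out. The rises numbered 2 without wound replicate 1, 4 without wound replicate 2, 3 without wound replicate 3, 7 without Mock replicate 1, 2 without Mock replicate 2 and 2 without Mock replicate 3. Of all tested sequences, 6.27% to 7.88% were then higher, against 9.86% with all libraries. The fall of Niben101Scf01063 was lost without any 1 of the wounded or mock libraries (adjusted p 0.0679 to 0.156). Without Mock replicate 2 there were 6 falls of other sequences, where 3.54% of all tested sequences were lower. Niben101Scf01653 lost its call without wound replicate 1 (adjusted p = 0.133), wound replicate 3 (0.0975), Mock replicate 2 (0.126) or Mock replicate 3 (0.0970), and with upper-quartile factors (0.0536). Its log2 fold change was 0.69 to 1.01 over the 18 alternative fits. At an unadjusted p under 0.05 there were 11 rises and 8 falls (edgeR), against 16.4% and 12.1% of all tested sequences. DESeq2 called 5 rises and 3 falls, against 10.8% and 7.85% of all tested.

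Heat and wounding were also compared directly. Of the 129, 18 were higher and 34 lower in heat libraries than in wounded libraries (14.0% and 26.4%, against 26.7% and 25% of all tested sequences). Changes of at least 2-fold numbered 7 higher and 6 lower, against 12.8% and 9.71% of all tested. The higher ones include the 7 sequences that entered through their heat share, which make up 6 of the 7 at 2-fold. The other at 2-fold, Niben101Scf09590, and the smaller rise of Niben101Scf00369 belong to sequences that averaged under 0.1% over mock and wounded libraries together. Some of the lower ones averaged under 0.1% over heat and mock libraries together. They were Niben101Scf02583 (0.0730% in heat, 0.101% in mock libraries), Niben101Ctg13946 (0.0889% and 0.104%) and Niben101Scf03839 (0.0818% and 0.116%). They reached the set only with their wounded share, so their lower heat values are no support for a direction. When sequences were chosen on the mock libraries alone, 133 reached 0.1%, of which 11 were higher and 40 lower in heat (8.27% and 30.1%). This choice also leaves out sequences that reached 0.1% only in heat libraries, so the split is partly set by it. With upper-quartile factors there were 13 higher and 56 lower of the 129 (22.5% and 31.7% of all tested), and with library totals alone 14 and 60 (23.2% and 28.4% of all tested). Of the 38 sequences lower in heat than in mock, 28 were also lower than in wounded libraries, a comparison that uses the same heat libraries. Among the leaders, Niben101Scf02262 was lower in heat than in wounded libraries by a log2 fold change of -1.83 ± 0.148 (SE, adjusted p = 1.59e-06 in edgeR's test) and Niben101Scf01785 by -0.82 ± 0.130 (adjusted p = 2.73e-04). Niben101Ctg10718 was not called, at -0.35 ± 0.157 (adjusted p = 0.0791).

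For these sequences, replicates differed least in the wounded group. The median coefficient of variation of scaled counts over the 129 was 10.3% in heat, 5.23% in wounded and 11.6% in mock libraries. For other tested sequences of at least 10 CPM, a mean computed from the counts (n = 6278), it was 10.2% in heat, 8.12% in wounded and 9.10% in mock libraries. The largest coefficient of variation of a sequence lay in the heat group for 48, in the wounded group for 5 and in the mock group for 76. It exceeded 40% for Niben101Ctg16374 and Niben101Scf13600 in heat libraries and for Niben101Scf09253 in mock libraries. Niben101Scf09253 (positions 1 to 142276) held 0.187%, 0.296% and 0.170% in heat libraries, 0.238%, 0.221% and 0.329% in wounded libraries, and 0.352%, 0.160% and 0.274% in mock libraries, and all groups overlapped. It was named after its values were seen.

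Across the 9 libraries, the log2 share of Niben101Scf01991 was most like those of Niben101Scf05824 (Pearson r = 0.930), Niben101Scf05801 (r = 0.903) and Niben101Scf02147 (r = 0.899). The median over the other 128 abundant sequences was 0.635. These correlations share the libraries and their totals and are descriptive. At the edge of the set, Niben101Scf03839, Niben101Scf01220 and Niben101Scf04198 were just inside, with mean shares of 0.103%, 0.103% and 0.101%. Niben101Scf00503, Niben101Scf04494 and Niben101Scf03929 were just outside, with 0.09997%, 0.0989% and 0.0975%.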

How the data were processed

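Total RNA came from a Trizol extraction and a company made the libraries, per the labels' protocols. Not given in the sources used here: aligner, counter, treatment of strand and of reads matching several places, and any depletion of ribosomal RNA. Sequences with near-identical copies are therefore uncertain. The authors deposited whole-number counts per scaffold or contig for each library. The deposited RPKM values equal the count over whole sequence length and library total, and the authors' TPM values sum to 1000000. A deposited scaled signal headed CPM (9 columns) was not used. Names are those of the files, which pair no sequence with a gene; no sequence letters or annotation were used.

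The test was edgeR 4.0.16 in R 4.3.3 on the counts: filterByExpr, TMM scaling, 1 quasi-likelihood model of the 3 groups over all 9 libraries, and Benjamini-Hochberg adjustment over 9645 sequences at 0.05. Standard errors are the log2 fold change over the square root of F. DESeq2 1.42.0 was an alternative. The test was tried on simulated data. The common biological coefficient of variation was 15%.

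The abundant sequences, the rules and the alternatives were chosen with earlier results of these data known. Sequences were named as the 12 with the highest mean share, the 2 largest rises and falls per treatment with an adjusted p under 0.05 and groups that did not overlap, the 3 on each side of 0.1%, and the 3 most like the first. Others are marked as chosen after their values were seen.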

Additional observations from a re-analysis of the deposited data

How the results depend on the processing

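For heat against mock, upper-quartile factors gave 60 lower and library totals alone 64 lower, and for heat against wounding they gave 56 and 60 lower. Of all tested sequences, 33.1% and 29.2% were lower for heat against mock, and 31.7% and 28.4% for heat against wounding. For wounding against mock, upper-quartile factors gave 3 higher (against 8.3% of all tested sequences) and library totals alone 6 lower (against 5.74%). No filter gave 11 higher and 2 lower (against 7.51% and 4.14% of all tested) and DESeq2 3 lower (against 7.85%). The replicate block gave 2 higher and 0 lower (against 7.93% and 3.44%). With an adjusted p under 0.01 wounding gave 2 higher and 0 lower, and the share over all tested sequences is not given here. A minimum of 2-fold left 7 higher and 7 lower for heat against mock, 1 and 0 for wounding, and 7 and 6 for heat against wounding. The shares of all tested sequences at 2-fold were 12.8% and 8.58%, 3.61% and 0.954%, and 12.8% and 9.71%. A set threshold of 0.05% (268 sequences) gave 66 higher and 71 lower for heat, 22 and 10 for wounding, and 70 and 73 between treatments. Rises and falls after heat were thus closer in number at 0.05% than at 0.1%. For this set and the next 2, the shares of all tested sequences were 27.4% higher and 22.8% lower for heat. They were 9.86% and 5.02% for wounding, and 26.7% and 25% between treatments. A threshold of 0.2% (64 sequences) gave 2 and 21, 0 and 0, and 3 and 18, where 3 higher and 3 lower after wounding had an unadjusted p under 0.05 (edgeR) and DESeq2 called 0 and 2. At least 0.1% in every library (89 sequences) gave 3 and 21, 0 and 0, and 7 and 19, where wounding had 4 higher and 6 lower at an unadjusted p under 0.05 (edgeR) and DESeq2 called 0 and 2. Sequences chosen on the group outside the comparison gave 5 higher and 44 lower of 130 after heat, 7 and 3 of 145 after wounding, and 11 and 40 of 133 in heat against wounding. Choosing on wounded or mock libraries leaves out sequences that were abundant in heat alone. The thresholds change the calls by construction, and otherwise the cause was not tested. The summed share was -3.246 points for heat minus mock and 0.8282 points for wounding minus mock with library totals times TMM factors, a choice made after seeing the data. Wounding minus mock was 0.6441 without Mock replicate 1.

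Without 1 library at a time, heat gave 12 to 15 higher and 28 to 46 lower, against 24.2% to 27.2% and 18.8% to 21.6% of all tested. Wounding gave 2 to 7 higher and 0 to 6 lower, against 6.27% to 11.3% and 1.97% to 6.14% of all tested. There were 13 to 23 higher and 29 to 49 lower between treatments, against 23.4% to 28.1% and 20.4% to 24.1% of all tested. The summed share then differed from mock by -8.018 to -5.162 points after heat and by -2.212 to 0.6441 points after wounding. The same numbers do not pair the libraries: correlations of deviations between same-numbered libraries ran from -0.144 to 0.109. Adding the replicate block left 13 rises and 33 falls for heat, and 15 were higher and 33 lower in heat against wounding. Of all tested sequences, 25.8% were then higher and 20.7% lower for heat, and 25.1% and 23.3% between treatments. Sequences without a call may still have changed: for heat, the set's standard errors had a median of 0.120 on the log2 scale.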
